A study of Homo sapiens with 12 samples.

Results

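The replication-dependent histone genes were chosen by name. A gene was a member if its Ensembl identifier maps to a current symbol H1-1 to H1-6, or to a symbol that starts with H2AC, H2BC, H3C or H4C and goes on with a number, and pseudogenes were left out. The count table held 69 such genes among 58884, of which 6 encode the linker histone H1, 17 encode H2A, 18 encode H2B, 13 encode H3 and 15 encode H4. By older symbol, 55 members belong to the HIST1 cluster on chromosome 6, 11 to HIST2 and 2 to HIST3 on chromosome 1, and 1 to HIST4 on chromosome 12. RNA had been sequenced from U2932 and TMD8, which are established cell lines of diffuse large B-cell lymphoma (DLBCL) labelled as wild type. Cells of each line were treated for 4 h with 20 µg/mL of rituximab (R) or ofatumumab (OF), antibodies that bind CD20 on the surface of B cells, or of a human IgG1 isotype control that does not. Each of the 6 conditions had 2 libraries, since each line had been kept as separate cultures for a week before treatment. Libraries of a line with the same replicate number were taken to share a culture, which the labels do not state. Without a term for the replicate number, p-values within a line measure the spread between libraries, and so cultures, of the same condition in 1 line. Those for differences between lines pool this spread over both lines. No other line or donor was sampled.

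Histone H1 binds the DNA that enters and leaves the nucleosome, whereas H2A and H2B pair as dimers and H3 and H4 form the tetramer at the core of the nucleosome. The genes described here are transcribed mainly in S phase, when new DNA is packed, and each type is made from many gene copies that encode nearly the same protein. Their mRNA does not normally end in a poly(A) tail but in a short stem-loop, which the stem-loop binding protein SLBP and the U7 small nuclear ribonucleoprotein use to cut the transcript. Many of these genes also have longer annotated transcripts that run past the stem-loop, and such transcripts can carry a poly(A) tail. Replacement histones, such as H3.3 and H2A.Z, are made also outside S phase, mostly from ordinary polyadenylated mRNA.

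The stem-loop is shown for members on which the results turn, with the stem-loop in capitals and 5 bases on either side, 5′ to 3′, from the GENCODE 29 transcripts on GRCh38. It was found in the annotated transcripts of 31 of the 69 members. H2AC6 (chr6:26124664-26124689, plus strand) and H2BC8 (chr6:26216213-26216238, minus strand) carried the form shared by 17 members, H2BC7 (chr6:26199963-26199988, plus strand) a form shared by 4, and H4C8 (chr6:26285126-26285151, minus strand) a form shared by 5, all of them H4 genes.
H2AC6: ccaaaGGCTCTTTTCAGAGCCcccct
H2BC8: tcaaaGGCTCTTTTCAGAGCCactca
H2BC7: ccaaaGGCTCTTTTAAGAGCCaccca
H4C8: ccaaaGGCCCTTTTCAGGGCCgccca
The annotated transcripts of these members ran on for 1128, 1059, 732 and 1655 bases after the stem-loop. By this measure, 26 members had a transcript that went at least 100 bases past the stem-loop or was spliced, 7 had transcripts that ended near it, and 36 were annotated as 1 exon in which no stem-loop was found, H2BC12 and H1-2 among them. The annotated transcripts of these 2 genes are only 381 and 642 bases long. A stem-loop past an annotated end would have been missed, so this class does not mean that the mRNA lacks one.

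Several members lie head to head, so that the bases between their starts serve as promoter for both. The sequence between the starts is shown for the H2BC4 and H2AC6 pair (chr6:26123927-26124171) and for the H2BC8 and H2AC8 pair (chr6:26216689-26216920), as RefSeq gives it on GRCh38.p14, plus strand, because H2AC6 and H2BC8 are among the members described in most detail. Capitals mark CCAAT, the octamer ATTTGCAT and TATAAA, each on either strand.
H2BC4/H2AC6: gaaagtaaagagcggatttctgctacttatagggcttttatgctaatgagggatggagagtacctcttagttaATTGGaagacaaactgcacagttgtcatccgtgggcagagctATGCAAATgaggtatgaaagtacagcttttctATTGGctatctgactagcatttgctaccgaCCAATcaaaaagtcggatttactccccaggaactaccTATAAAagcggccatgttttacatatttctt
H2BC8/H2AC8: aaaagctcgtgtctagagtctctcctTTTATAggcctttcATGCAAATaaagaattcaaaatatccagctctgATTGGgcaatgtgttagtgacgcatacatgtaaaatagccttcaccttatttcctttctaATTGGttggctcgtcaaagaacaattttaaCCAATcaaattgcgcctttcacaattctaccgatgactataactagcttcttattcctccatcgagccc
Both hold 3 CCAAT matches, 1 octamer and 1 TATAAA. In the RefSeq windows around gene starts, found for 64 members, CCAAT was present in 84.4% of members against 34.6% of all 35116 promoters, and TATAAA in 65.6% against 11.5%. The octamer was present in 40.6% of members against 1.8% of all promoters. By type it was found in 77.8% of H2B and 68.8% of H2A promoters, in 9.1% of H3 promoters and in 0.0% of H1 and of H4 promoters. These are matches of letters, and binding was not measured. The octamer and CCAAT can overlap at their ends, and TATAAA can overlap its own complement.

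Libraries held 15440226 to 27110612 counts, of which 8325 to 53448 fell on members. CPM values below, which are counts scaled to the size of the library, were normalized by TMM within each line. The defining B-cell markers were present in all libraries, with a sum over the 7 listed genes of 2126 to 3653 CPM, whereas the 4 T-cell genes summed to at most 0.14 CPM and the 3 erythroid genes to at most 0.12 CPM. The 4 epithelial genes summed to 30.1 to 39.2 CPM in U2932 and to 15.7 to 26.6 CPM in TMD8. The 4 myeloid genes summed to at most 1.34 CPM. In TMD8, replicate 2 of OF and of isotype stood apart from the other libraries. A chi-square statistic of replicate counts, divided by its degrees of freedom so that sampling noise gives a value near 1, reached 62.2 (OF) and 106 (isotype) in TMD8 and 2.42 to 10.8 in the other 4 conditions.

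In U2932, replication-dependent histone mRNA was lower with both antibodies than with isotype, for each of the 5 types. The summed level of all members was 518 and 549 CPM with R, 511 and 527 CPM with OF, and 939 and 987 CPM with isotype. Both isotype libraries were above all 4 antibody libraries, and the 4 antibody libraries (526 ± 16.6 CPM, mean ± SD, n = 4) held 45.4% less than isotype. In a mixed culture, fewer cells making histone mRNA and less of it per cell cannot be told apart. The ratio of antibody to isotype was lowest for H2A, at 0.342 ± 0.015 (SD from the libraries, n = 4 and 2), and for H3, at 0.404 ± 0.047. It was 0.545 ± 0.057 for H4, 0.569 ± 0.040 for H1 and 0.636 ± 0.044 for H2B. These sums were described without a test. The B-cell markers summed to 3087 to 3289 CPM with the antibodies and 2126 to 2172 CPM with isotype in U2932, where CD79A and MS4A1 rose with both, and their part in the histone values was not tested.

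The sums rest on few genes. H2BC12, an H2B gene, held 33.9% of the member reads of U2932 isotype libraries, H1-2, an H1 gene, held 19.1% and H2AC6, an H2A gene, held 15.5%, as shares of reads that also depend on transcript length. With R the share of H2BC12 was 45.8% and that of H2AC6 was 8.0%, and with OF they were 45.3% and 7.7%. Without these 3 genes, the sum was 141 and 143 CPM with R, 136 and 139 CPM with OF, and 289 and 319 CPM with isotype, a ratio of 0.461 ± 0.034. Both isotype libraries were again above all 4 antibody libraries over the other 66 members. That selection was made after seeing the data.

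**Figure D1:**
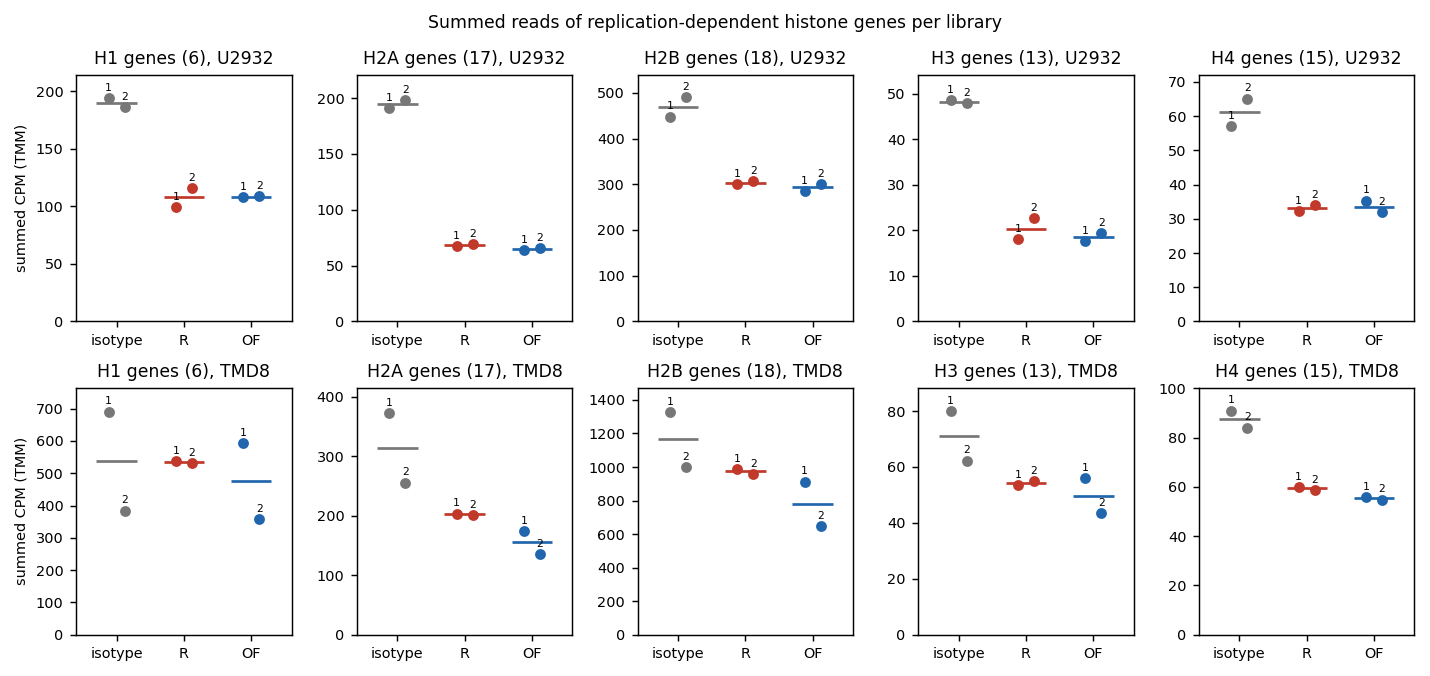
Summed CPM (vertical axis, linear, from 0) of the H1, H2A, H2B, H3 and H4 genes in each library under isotype, R and OF, with U2932 above and TMD8 below; points are libraries, numbered by replicate, and lines are means of 2. In U2932 the isotype libraries lie above all antibody libraries for each type, whereas in TMD8 the H1 libraries overlap and replicate 2 of OF and isotype lies below replicate 1.

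For single genes, edgeR's quasi-likelihood test was fitted to all genes of a line with enough counts, and a call required a Benjamini-Hochberg adjusted p under 0.10 together with a 1.5-fold or larger change. In U2932, 41 members were tested. Of these, 30 fell with R and 33 fell with OF, and none rose. DESeq2 called 19 of the 30 and 22 of the 33. The same call was made for 5.02% of the 14635 genes tested with R and for 5.21% with OF (3.11% and 3.54% by DESeq2). The median log2 fold change of the members was −1.06 with R and −1.22 with OF, against −0.02 and 0.01 over all genes tested. Of the 41 members, 29 were called with both antibodies, H3C12 with R alone and H1-5, H2BC6, H2AC12 and H4C4 with OF alone, and these comparisons share the isotype libraries. Both isotype libraries were above all 4 antibody libraries for 36 of the 41 members, against 24.5% of all genes tested.

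The 28 members not tested in U2932 had at most 0.552 CPM in any library, and 7 of them had no count. Of the 41 that were tested, 9 had a library under the filter's limit in both the R and the OF group. Neither antibody group alone would thus have placed them among the genes tested. Their isotype libraries were over the limit, except for H2AC20, with 5 and 9 counts under isotype and 8 to 11 with the antibodies. Apart from H2AC20, all of them are among the 36 members whose isotype libraries lay above all antibody libraries. The same members were called with OF and, but for H2AC12 and H4C4, with R. The filter favoured them in those counts. H1-3, H2BC9, H3C3 and H3C8 are among these 9, and their calls below were lost with both antibodies under DESeq2 or where at least 10 counts were required in every library. Among members with a mean of 1 CPM or more over the 6 libraries, a limit chosen after seeing the data, 24 of 31 fell with R and 25 of 31 fell with OF. At 5 CPM or more, 12 of 15 fell with each antibody.

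Among H2A genes, 4 of 9 tested fell with R and 5 of 9 fell with OF. H2AC6 (ENSG00000180573, chr6:26124145-26139116) was at 41.9 and 43.1 CPM with R, 39.6 and 40.5 CPM with OF, and 149 and 150 CPM with isotype. Replicates were close to each other and the groups did not overlap. H2AC6 fell by 1.81 on the log2 scale with R (SE 0.095, adjusted p = 3.96e-13). With OF the gene fell by 1.90 (SE 0.095, adjusted p = 2.31e-13). H2AC8, another H2A gene of HIST1, fell by 1.83 and 1.97. H2AC13 fell by 1.06 and 0.89, and 62.3% of its 50-base stretches also occur in H2AC14. H2AC11 was at 14.49 and 13.42 CPM with R, 12.5 and 13.0 CPM with OF, and 16.98 and 20.32 CPM with isotype. Its log2 fold changes of −0.42 and −0.55 passed the limit on the adjusted p (0.0159 and 0.00248) but not that on the fold change.

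H2B genes were the largest group, and 12 of 14 tested fell with R and 13 of 14 with OF. H2BC8 (ENSG00000273802, chr6:26215159-26216692) was at 3.12 and 3.09 CPM with R, 2.94 and 3.95 CPM with OF, and 15.3 and 17.8 CPM with isotype. It fell by 2.41 on the log2 scale with R (SE 0.175, adjusted p = 2.06e-10), and under OF it fell by 2.26 (SE 0.174, adjusted p = 6.31e-10). H2BC7 (ENSG00000277224, chr6:26199520-26200715) was at 1.41 and 0.99 CPM with R, 1.29 and 0.89 CPM with OF, and 6.80 and 6.82 CPM with isotype. It fell by 2.50 with R (SE 0.252, adjusted p = 4.43e-08), and under OF it fell by 2.65 (SE 0.26, adjusted p = 3.53e-08). In both genes every antibody library lay below every isotype library. H2BC11 fell by 1.33 and 1.23 on the log2 scale, H2BC5 by 0.80 and 0.96, and H2BC9 by 1.24 and 1.79. The call of H2BC9 with R was lost without R replicate 1, R replicate 2 or isotype replicate 1, and with OF without OF replicate 2.

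H2BC12 (ENSG00000197903, chr6:27146418-27146798) had smaller fold changes than H2BC5 and H2BC11, a difference that was not tested. It was at 238 and 250 CPM with R, 229 and 240 CPM with OF, and 314 and 340 CPM with isotype, and the groups did not overlap. Its log2 fold changes were −0.42 under R (SE 0.085, adjusted p = 0.0005) and, under OF, −0.48 (SE 0.085, adjusted p = 0.000135), so it was not called because the fold limit was not reached. Of its 50-base stretches, 74.1% occur in transcripts of other genes, H2BFS in front, and how the counting treated such reads is not given in the sources used here.

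All 5 H3 genes tested fell with R and 4 fell with OF. By DESeq2 only H3C10 was called, with each antibody, and the calls of H3C2, H3C3, H3C8 and H3C12 were lost. H3C10 (ENSG00000278828, chr6:27810064-27811300) was at 14.0 and 18.3 CPM with R, 14.0 and 14.9 CPM with OF, and 39.4 and 39.5 CPM with isotype. It fell by 1.29 on the log2 scale with R (SE 0.122, adjusted p = 1.59e-08), and under OF it fell by 1.45 (SE 0.124, adjusted p = 3.78e-09). H3C8 fell by 1.52 with each antibody, from 1.69 and 1.79 CPM with isotype. H3C3 was scarcer, at 0.530 and 0.055 CPM with R, 0.061 and 0.118 CPM with OF, and 1.36 and 0.961 CPM with isotype. It fell by 1.99 with R and by 3.59 with OF, with standard errors of 0.578 and 0.743, and it was tested only through its isotype libraries. Without R replicate 2 the calls of H3C3 and H3C8 with R were lost.

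Of 9 H4 genes tested, 6 fell with R and 7 fell with OF. H4C8 (ENSG00000158406, chr6:26277609-26285638) was at 10.5 and 11.6 CPM with R, 10.98 and 11.15 CPM with OF, and 23.4 and 24.2 CPM with isotype. It fell by 1.10 on the log2 scale with each antibody (SE 0.125 and 0.126, adjusted p = 2.82e-07 and 3.6e-07). H4C3 fell by 0.96 and 1.06, but it was not called by DESeq2 or in a fit of all 12 libraries, nor with R without isotype replicate 2. Its log2 ratio of OF to isotype was −0.27 between libraries numbered 1 and −1.96 between libraries numbered 2. H4C16, the only member on chromosome 12, was at 8.13 and 8.50 CPM with R, 9.63 and 8.14 CPM with OF, and 11.03 and 13.27 CPM with isotype. It did not reach the fold limit, with log2 fold changes of −0.55 and −0.45 (adjusted p = 0.00769 and 0.0246).

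Of the H1 genes, 4 were tested, and 3 fell with R and 4 with OF. H1-2 (ENSG00000187837, chr6:26055787-26056428) was at 96.8 and 113 CPM with R, 106 and 106 CPM with OF, and 188 and 179 CPM with isotype. It fell by 0.81 on the log2 scale with R (SE 0.093, adjusted p = 3.81e-07), and under OF it fell by 0.79 (SE 0.093, adjusted p = 6.23e-07). H1-4 fell by 1.21 and 1.26 and H1-3 by 2.43 and 1.56, both from under 3 CPM with isotype. In a fit of all 12 libraries H1-2 was not called with either antibody, and the call of H1-3 with OF was lost without OF replicate 1.

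Of the 41 members tested in U2932, 2 had values above isotype, and they are named here after their values were seen. H4C12 was at 2.95 and 2.76 CPM with R, 2.698 and 3.6 CPM with OF, and 2.86 and 2.47 CPM with isotype, with log2 fold changes of 0.10 and 0.24 (adjusted p = 0.813 and 0.499). All of its 50-base stretches also occur in H4C11. H2AC20 was at 0.235 to 0.649 CPM in the 6 libraries, with log2 fold changes of 0.80 and 0.80 (adjusted p = 0.317 and 0.31).

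**Figure D2:**
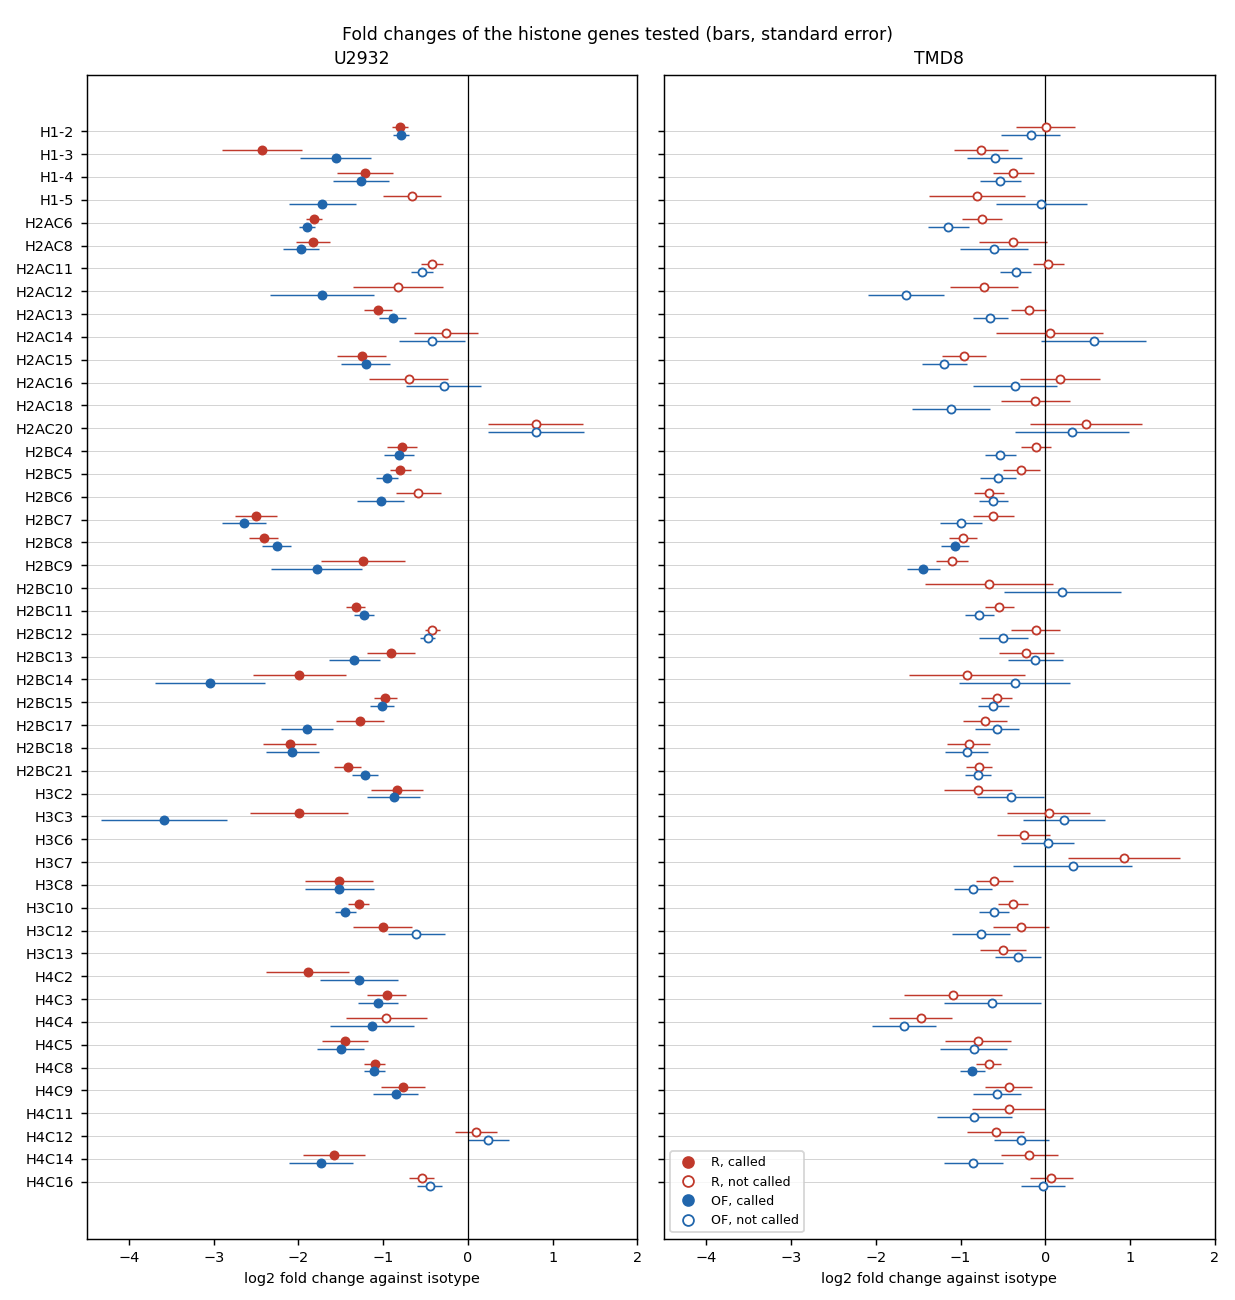
Log2 fold change against isotype (horizontal axis) of each histone gene tested, with R in red and OF in blue, U2932 on the left and TMD8 on the right; bars are standard errors and filled points are called. In U2932, 39 of 41 genes lie below 0 with each antibody, and in TMD8 38 of 46 with R and 40 of 46 with OF.

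Members fell in U2932 in each class of annotation, and differences between classes were not tested. With R, 17 of 20 tested members with an extended transcript fell, as did 4 of 4 whose transcripts end near the stem-loop and 9 of 17 in which no stem-loop was found. With OF these counts were 17 of 20, 4 of 4 and 12 of 17. Among members that overlap no other gene and share under 10% of their 50-base stretches, 21 of 26 fell with R and 24 of 26 fell with OF. By cluster, 27 of 36 HIST1 members and 3 of 4 HIST2 members fell with R, and none of the 2 HIST3 members was tested. Median GC content was 55.4% for the members tested and 48.1% for all genes tested.

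Genes that share a promoter region differed in their fold changes in some pairs and had closer values in others. In the U2932 comparison with R, the log2 fold changes were −0.78 for H2BC4 and −1.81 for H2AC6, −2.41 for H2BC8 and −1.83 for H2AC8, and −1.33 for H2BC11 and −0.42 for H2AC11. H2BC21 and H2AC20 in HIST2 had values of −1.42 and 0.80, and H2AC20 was scarce and not called. H2AC14 and H2BC14 had values of −0.26 and −1.99. Values were closer for H2BC13 and H2AC13 (−0.91 and −1.06) and for H2AC15 and H2BC15 (−1.25 and −0.97). Differences between partners were not tested.

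In TMD8, the level of histone mRNA was higher and its replicates were further apart. All members summed to 1845 and 1807 CPM with R, 1793 and 1238 CPM with OF, and 2563 and 1786 CPM with isotype. The groups overlapped, and the ratio of the 4 antibody libraries to isotype was 0.768 ± 0.235, an SD that leaves out any sharing of cultures. Between libraries of the same number, 1 and then 2, the log2 ratio to isotype was −0.52 and −0.53 with OF, close to each other. With R it was −0.47 and 0.02. Most of that spread came from H1-2 and H2BC12. H1-2 was at 531 and 524 CPM with R, 586 and 349 CPM with OF, and 680 and 372 CPM with isotype. H2BC12 was at 765 and 722 CPM with R, 702 and 441 CPM with OF, and 960 and 651 CPM with isotype. In each of them replicate 2 of OF and of isotype was far below replicate 1, by more than the antibodies differed from isotype. Without H2BC12, H1-2 and H2AC6, the sum was 388 and 410 CPM with R, 371 and 346 CPM with OF, and 611 and 552 CPM with isotype. These groups did not overlap, and the ratio was 0.651 ± 0.066. Among the types, the H4 sum had the smallest spread, at 60.0 and 58.7 CPM with R, 55.9 and 54.8 CPM with OF, and 90.9 and 84.0 CPM with isotype, a ratio of 0.656 ± 0.046.

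Of 46 members tested in TMD8, 0 were called with R and 3 fell with OF, against 0.246% and 0.344% of the 14227 genes tested that were called lower. With R, 14 of the 46 members had an unadjusted p under 0.05, against 15.9% of all genes, and DESeq2 called 6 lower, against 2.2% of all genes. The median log2 fold change was −0.52 with R and −0.60 with OF, against −0.02 and −0.01 over all genes. Both isotype libraries were above all 4 antibody libraries for 22 of the 46 members, against 13.2% of all genes tested. With the replicate number added to the fit as a replicate block, 13 members fell with R and 16 fell with OF, against 5.96% and 4.58% of all genes. The block takes same-numbered libraries to share a culture. Over genes, deviations of replicates in TMD8 correlated at 0.576 between OF and isotype. Those of R correlated at only 0.177 with OF and 0.176 with isotype.

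The 3 genes that fell with OF were H2BC9, H2BC8 and H4C8. H2BC9 (ENSG00000275713, chr6:26251651-26253710) was at 8.98 and 7.86 CPM with R, 6.98 and 6.36 CPM with OF, and 19.23 and 16.97 CPM with isotype. It fell by 1.44 with OF on the log2 scale (SE 0.192, adjusted p = 0.0851), and its value with R was −1.10 (SE 0.189, adjusted p = 0.101). H2BC8 was at 26.1 and 29.7 CPM with R, 28.1 and 24.2 CPM with OF, and 57.5 and 51.6 CPM with isotype. It fell by 1.06 with OF (SE 0.166, adjusted p = 0.0935), and its value with R was −0.97 (SE 0.166, adjusted p = 0.101). H4C8 was at 26.1 and 24.9 CPM with R, 23.4 and 21.4 CPM with OF, and 41.3 and 39.9 CPM with isotype. It fell by 0.86 with OF (SE 0.149, adjusted p = 0.0966), and with R its value was −0.67 (SE 0.148, adjusted p = 0.127). In these genes all 4 antibody libraries lay below both isotype libraries, and each was called with both antibodies under the replicate block (adjusted p = 0.00456 to 0.0172). These 3 calls were lost without any one of R replicate 1, R replicate 2, OF replicate 1, OF replicate 2 and isotype replicate 1 of TMD8 (0 members called in each case), and 6 were called without isotype replicate 2.

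H2AC6 in TMD8 was at 160 and 152 CPM with R, 135 and 102 CPM with OF, and 312 and 210 CPM with isotype. Its log2 fold changes were −0.75 under R (adjusted p = 0.219) and, under OF, −1.14 (adjusted p = 0.132), and with the replicate block it was called with both (adjusted p = 0.0247 and 0.00666). H1-2 and H2BC12 had log2 fold changes of 0.00 and −0.12 with R and of −0.17 and −0.50 with OF, and they were not called with the block either.

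**Figure D3:**
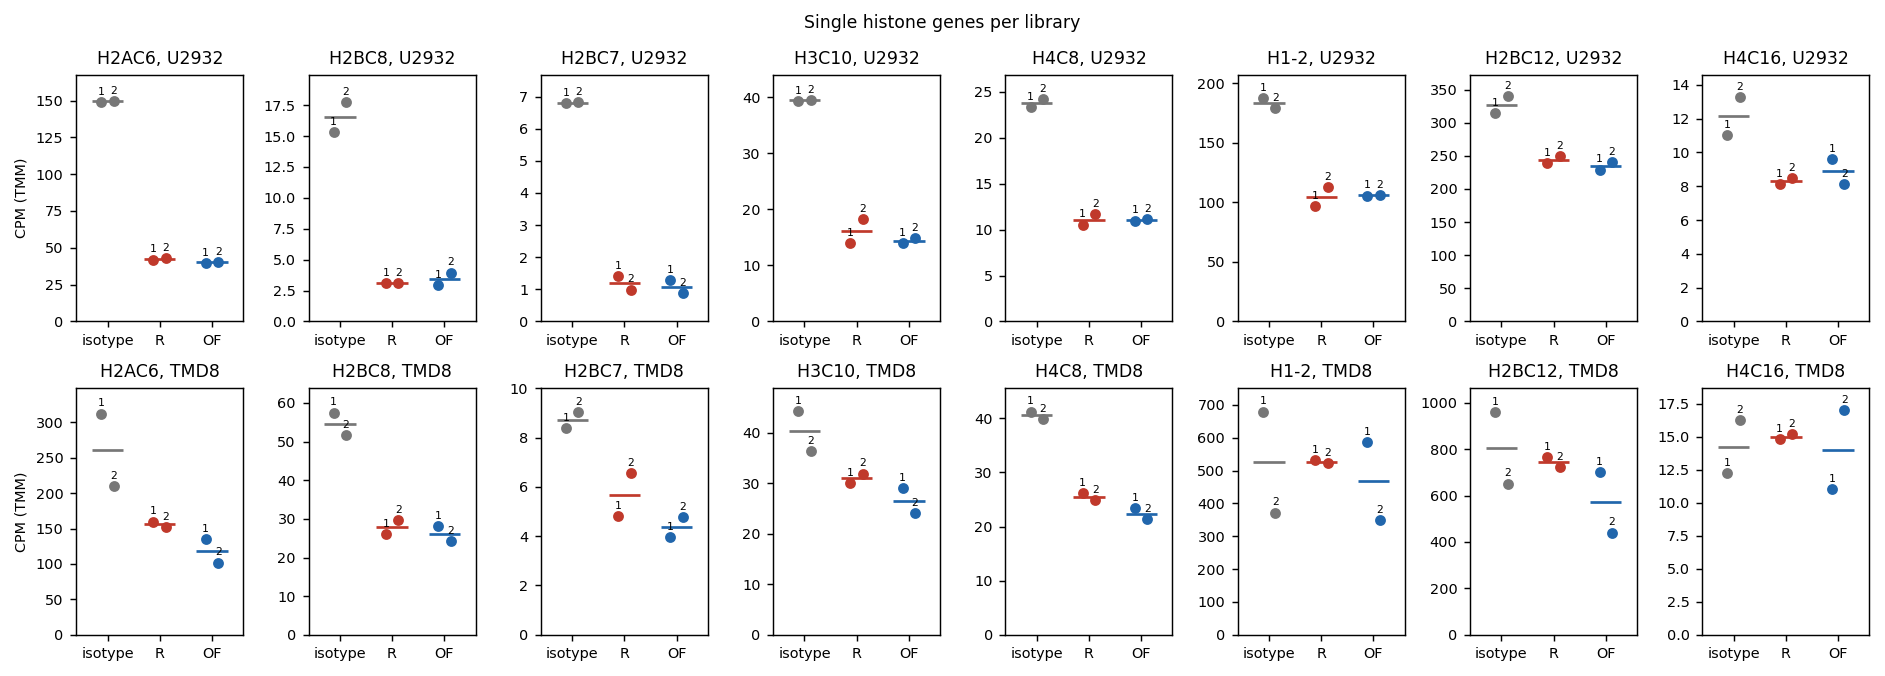
CPM (vertical axis, linear, from 0) of 8 histone genes in each library under isotype, R and OF, with U2932 above and TMD8 below; points are libraries, numbered by replicate, and lines are means of 2. H2AC6, H2BC8, H2BC7, H3C10 and H4C8 lie lower with both antibodies in both lines, whereas H1-2, H2BC12 and H4C16 differ between replicates of TMD8 by more than between its conditions.

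R and OF were compared directly. No member was called between them in either line, at the adjusted p limit of 0.30 for U2932 and 0.10 for TMD8, and the same call was made for 0.00683% of all genes in U2932 and 0.0% in TMD8. An unadjusted p under 0.05 was found for 1 of 41 members in U2932, H1-5, and for 0 of 46 in TMD8, against 5.1% and 4.09% of all genes, and DESeq2 called 0 in both. Log2 differences between R and OF ranged from −0.87 to 1.60 in U2932, with a median of 0.05, and from −0.87 to 1.00 in TMD8, with a median of 0.17. The precision differed between members, with a log2 difference of 0.09 (SE 0.098) for the abundant H2AC6 and of 1.60 (SE 0.996) for the scarce H3C3 in U2932.

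The response to R differed between the lines for H2BC8 and H2BC7. An interaction fitted to all 12 libraries called 2 of 47 members with R, both lower in U2932 than in TMD8, against 0.179% of the 16187 genes tested. H2BC8 differed by −1.44 (SE 0.233, adjusted p = 0.0511) and H2BC7 by −1.88 (SE 0.349, adjusted p = 0.081), on the log2 scale as U2932 minus TMD8. In TMD8, H2BC7 was at 4.804 and 6.562 CPM with R, 3.95 and 4.77 CPM with OF, and 8.38 and 9.02 CPM with isotype. With OF, 0 members were called against 0.0494% of all genes, 12 of 47 had an unadjusted p under 0.05, against 8.46% of all genes, and DESeq2 called 4 lower, against 0.815% of all genes. The values of H2BC8 and H2BC7 were −1.20 and −1.65 (adjusted p = 0.144 and 0.187). With the replicate block, 10 members were called with R and 5 with OF, all lower in U2932, against 2.32% and 1.11% of all genes. H2BC8, H2BC7, H2AC6 and H3C10 were among both. The call of H2BC7 was lost with library size only in place of TMM and with the trend on GC content removed. Both calls with R were lost without any one of the 6 libraries of U2932, or without either R replicate of TMD8, and 9 members were called without isotype replicate 1 of TMD8.

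**Figure D4:**
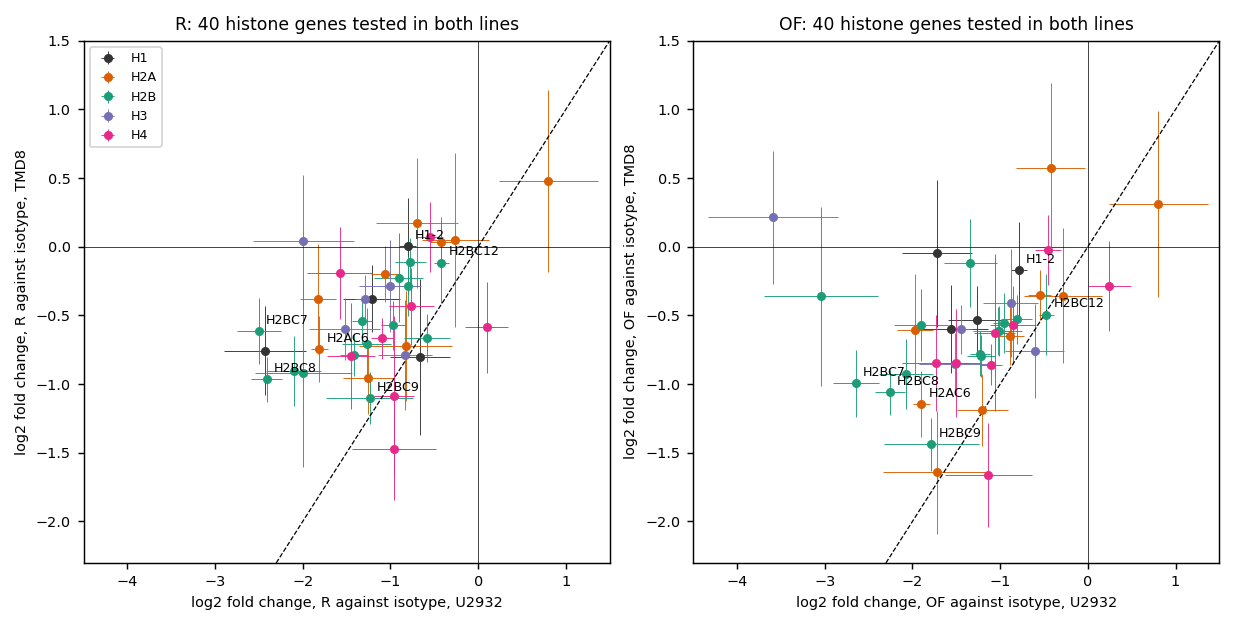
Log2 fold change against isotype in U2932 (horizontal axis) and TMD8 (vertical axis) for the 40 histone genes tested in both lines, with R on the left and OF on the right; bars are standard errors, colours are histone types and the dashed line marks equal values. For each antibody 34 of the 40 genes lie above the dashed line, and H2BC7 (−2.50 and −0.61 with R) and H2BC8 (−2.41 and −0.97) lie far from it.

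Under isotype, the level of these genes was lower in U2932 than in TMD8. Of 47 members tested, 25 were lower and 0 higher, against 28.0% of all genes that were called lower. Of the 25, 6 (H2AC18, H2BC10, H3C6, H3C7, H3C13 and H4C11) had too few counts to be tested within U2932 and entered through TMD8, the line in which they were higher. Among the 40 members tested in both lines, 19 were lower in U2932. The median log2 difference was −0.89, and it was −0.02 over all genes. By type, 10 of 15 H2B, 5 of 8 H3, 4 of 10 H4, 3 of 10 H2A and 3 of 4 H1 genes were lower in U2932. Among H3 genes tested in both lines, 2 of 5 were lower. H2BC9 was at 1.079 and 0.824 CPM in U2932 and at 19.23 and 16.97 CPM in TMD8, a difference of −4.38 (SE 0.213, adjusted p = 1.91e-08). H2BC12 differed by −1.44 (SE 0.216, adjusted p = 0.000144), H1-2 by −1.66 (SE 0.269, adjusted p = 0.000258), H2AC6 by −0.94 and H2BC8 by −1.86. H3C10, H2BC11 and H2AC8 had values of −0.17, −0.19 and 0.01 (adjusted p = 0.368, 0.248 and 0.973).

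Other genes of the histone pathway were described for comparison. The 11 replacement histone genes summed to 3171 to 3307 CPM with the antibodies and 2797 to 2914 CPM with isotype in U2932, and to 1775 to 2439 and 1832 to 2406 CPM in TMD8. None of the tested genes of the list rose with either antibody in either line. H1-10, a linker histone, fell by 0.60 with R in U2932 and by 1.77 with R in TMD8 (adjusted p = 0.000214 and 0.0717). The median over the tested genes of the list was −0.01 with R and −0.08 with OF in U2932, and 0.10 and 0.11 in TMD8.

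Of 28 genes for histone transcription and 3′ end processing, all tested, 1 rose with each antibody in U2932, 1 rose with R in TMD8 and none fell. SNRPD3, a core protein of small nuclear ribonucleoproteins, rose by 1.27 and 1.34 in U2932, and CCNE2, a cyclin that activates CDK2 at the start of S phase, rose by 1.42 with R in TMD8 (adjusted p = 0.0738). SLBP had log2 fold changes of −0.13 and −0.17 in U2932 and of 0.11 and 0.00 in TMD8, and NPAT, a coactivator of histone genes, had −0.06 and −0.15 in U2932 and 0.59 and 0.32 in TMD8, none of them called. Of 23 tested chaperones and assembly factors, HIRA, a chaperone of H3.3, rose by 0.84 and 0.91 in U2932 and UBN1, its partner, rose by 0.66 with OF. Of 25 genes expressed in S phase, TYMS, the thymidylate synthase, rose by 0.75 with each antibody in U2932, and none fell in either line. With the replicate block, which pairs libraries of the same number, these counts changed in TMD8. Of the 28 transcription and processing genes, 4 then rose with R (NPAT, SNRPD3, CCNE1 and CCNE2) and 1 fell (SYMPK, a scaffold of 3′ end processing), and 3 rose with OF (SNRPD3, CCNE1 and CCNE2). Of the 23 chaperones, ANP32E and HIRA rose and DAXX fell with R, and HIRA rose and ASF1A fell with OF. H1-10 also fell with OF. CCNE1, SYMPK, ANP32E, DAXX and ASF1A are named after their values were seen. The S-phase genes summed to 6947 to 7135 CPM with the antibodies and to 7304 to 7355 CPM with isotype in U2932.

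RNAs that carry no poly(A) tail are described here, since how RNA was selected before sequencing is not given in the sources used here. Of the 15 listed, 8 were at 0 in the antibody libraries of U2932 and 8 in its isotype libraries, RN7SK among them. RN7SK was at 0 in all 12 libraries, and so was IPO4, a gene of the chaperone list. The zeros are thus not a measure of RNA selection, and their cause was not tested. RN7SL1 and RN7SL2 were the 2 called, and they rose in U2932 with R (0.99 and 0.79) and OF (1.48 and 1.57). The sum of the list was 147 to 409 CPM with the antibodies and 115 to 120 CPM with isotype in U2932, and 160 to 680 and 191 to 615 CPM in TMD8. In TMD8 these RNAs had log2 fold changes of −0.65 and −0.82 with R and of 0.29 and 0.21 with OF, none called. The part of RNA selection in the histone values was not tested.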

How the data were processed

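The authors trimmed reads with Trim Galore 0.6.0, aligned them with STAR 2.7.0e (versions from the submitters' processing notes, which name GRCh38) and deposited raw counts of reads per gene. The annotation release, RNA selection and strand setting are not given in the sources used here, and reads of overlapping antisense genes cannot be told apart. Symbols came from gene identifiers (65 members) or the GENCODE 29 name matched to an older symbol (4 members). The 6 libraries of each line were normalized by TMM, filtered with filterByExpr (at least 10 counts) and fitted with edgeR 4.0.16 (R 4.3.3, quasi-likelihood). Interactions and the comparison between lines used all 12 libraries. Calls needed an adjusted p under 0.10, or 0.30 for R versus OF in U2932, and 1.5-fold. Standard errors of log2 fold changes had a median over genes of 0.124 in U2932 and 0.251 in TMD8 (R versus isotype). Same-numbered libraries were taken to share a culture. Deviations of libraries with the same number from their condition's mean correlated at −0.044 to 0.095 in U2932 and 0.176 to 0.576 in TMD8. The 0.576 was between OF and isotype, and the values that involve R were 0.177 and 0.176. Named members were the 3 with most reads per type, the 5 with the smallest p among those called in each comparison with isotype and those called in an interaction, and up to 4 called genes per list. Members and lists were chosen with earlier results of these data known. Alternatives were DESeq2 1.42.0, other normalizations and filters, removal of a GC content trend (lowess, span 0.3), other sets of libraries, the replicate block and no fold limit. The steps were tested on simulated data. A result on the replacement histone list is not reported here.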

Additional observations from a re-analysis of the deposited data

Results flagged for a closer look

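The response to R differed between the cell lines by an interaction test for H2BC8, with a log2 difference of −1.44 (U2932 minus TMD8), and for H2BC7, with −1.88. In U2932 both fell with R, by 2.41 and 2.50, and in TMD8 their log2 fold changes were −0.97 and −0.61 and were not called. The call of H2BC7 was lost with library size only and with the trend on GC content removed. Both calls depended on single libraries, as described above. The cause was not tested.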

How the results depend on the processing

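In U2932, the count of members called with R was 19 by DESeq2 and kept within 1.5 times of 30 in the other settings, and without single libraries it ranged from 25 to 31, and from 27 to 35 with OF. In TMD8, calls depended on the setting. So did the share of all genes called lower with R, at 0.246% in the main fit, 2.2% by DESeq2 and 5.96% with the replicate block. For the interaction with R this share was 0.179% in the main fit and 2.32% with the block. Shares are not given for most other settings, so these counts do not by themselves describe the members. With R they were 6 by DESeq2, 1 with upper-quartile normalization, 2 with library size only, 8 with no filter, 2 with at least 10 counts in every library, 6 with the GC content trend removed and 9 with all 12 libraries. With OF they were 11 by DESeq2, 1 with library size only, 12 with no filter, 8 with the GC content trend removed, 15 with all 12 libraries and 0 with only the 4 libraries compared. The replicate block gave 13 with R and 16 with OF, and 11 and 15 when the GC content trend was also removed, an alternative chosen after seeing the data. It left the counts of U2932 at 30 and 33, and changed no count between R and OF. Without single libraries the counts of TMD8 ranged from 0 to 5 with R, where isotype replicate 1 gave the 5, and from 0 to 6 with OF. The interaction with R gave 6 by DESeq2, 8 with no filter, 1 with the GC content trend removed, 10 with the replicate block, 10 with both and 0 to 9 without single libraries. With OF it gave 4 by DESeq2, 4 with no filter, 1 with the GC content trend removed, 5 with the replicate block, 5 with both and 0 to 3 without single libraries, namely 3 without isotype replicate 1 and 2 without isotype replicate 2 of TMD8. The comparison between lines gave 13 with at least 10 counts in every library, where fewer members were tested. With library size only, the summed ratio in U2932 was 0.514 over all members and 0.322 for H2A. The summed ratio of H1 in TMD8 turned to 1.03 without OF replicate 2 and to 1.31 without isotype replicate 1, and ranged from 0.731 to 1.31 without single libraries. Of 677 alternative values of named members in comparisons where they had been called, 0 changed sign and 61 were no longer called. Values not called in the main fit were left out of this count, so it says little about changes of sign. Each condition had 2 libraries, which limits the precision of every estimate of spread, and the cause of these changes was not tested.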
